A study of Mus musculus with 12 samples.

Results

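Open chromatin was followed near 6 transcription factor genes of early mesoderm: T (brachyury), Eomes, Tbx6, Mesp1, Mesp2 and Msgn1. For these 6 of 21631 protein-coding genes it was read from ATAC-seq peak summits, the single bases of highest signal within peaks called from Tn5 transposase insertions. A summit was taken as a member when the nearest end of a protein-coding gene, within 100 kb, belonged to one of the 6, or when it lay inside one of them. The rule gave 128 of the 386209 summits in all 12 lists. Merged at 250 bp, they formed 36 of 104822 regions: 18 near Eomes, 8 near T, 4 near Mesp1, 3 near Msgn1, 2 near Tbx6 and 1 near Mesp2. The farthest summit inside the limit lay 98925 bp from Eomes, and the nearest one outside it 136468 bp from the same gene.

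T, Eomes and Tbx6 encode T-box factors, which bind DNA through the domain first described in brachyury, and Mesp1, Mesp2 and Msgn1 encode basic helix-loop-helix factors. Wnt and Nodal signals induce T and Eomes in the primitive streak, where cells leave the epiblast to form mesoderm and endoderm. Mesp1 then marks nascent mesoderm, including the progenitors of the heart, while Tbx6, Msgn1 and Mesp2 act mainly in the presomitic mesoderm, which gives rise to the somites.

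Libraries came from mouse embryoid bodies, aggregates of differentiating embryonic stem cells, grown with shaking in mesodermal medium and collected at days 3, 5 and 10. Foxk1 knockout (KO) bodies, which lack a forkhead transcription factor, were profiled at each day, against the line iHA-Foxk1 (titled iFoxk1, ND) at days 3 and 5 and bodies labelled Control, with no line named, at day 10. All 12 libraries, 2 in each of 6 groups, carry the label NoDox, and before differentiation a plating step had separated the stem cells from an irradiated fibroblast feeder layer. The labels name neither the deleted part of Foxk1 nor the number of clones, summit lists cannot check the loss of its product, and nothing in them says that both libraries of a group came from separate cultures, so a p-value here measures only how far these libraries differ, and that spread may be technical.

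Lists differed in length. Lengths at day 3 were 59006 and 53456 summits for KO libraries and 53473 and 54100 for control libraries. They were 48391 and 42129 (KO) and 14519 and 34040 (control) at day 5, and 4028 and 4755 (KO) and 10548 and 7764 (control) at day 10. Control replicate 1 of day 5 therefore stands apart. In addition, the KO files labelled day 5 name their peaks with a tag for day 7, so that genotype and day cannot be told apart in a comparison of the labelled day 5 groups. Names at day 10 lack the duplicate-removal tag of the earlier days, so that day and processing cannot be told apart there either. Read depth is unknown, because the lists hold no read counts. In such bulk samples fewer open cells and less open chromatin per cell cannot be told apart.

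Embryoid bodies hold several cell types, and summits near markers of others were also present. At day 3 both genotypes had a summit near 8 of 8 pluripotency genes, 8 of 8 fibroblast (feeder) genes, 5 of 5 neural genes and 5 of 6 endoderm genes. Fibroblast genes together had 4.68 to 5.05 summits per 10000 in the KO and 3.37 to 3.93 in the control at day 3, and 0.689 to 1.38 in the KO and 4.13 to 5.51 in the control at day 5. Among 11 genes of nascent mesoderm, which include the 6 described here, 10 had a summit in the KO at day 3 (Tbx6 had none) and 11 in the control, with 5.8 to 5.99 summits per 10000 in the KO and 8.42 to 8.61 in the control. Pluripotency genes had 6.92 to 7.11 in the KO and 5.99 to 7.48 in the control, endoderm genes 5.43 to 6.17 in the KO and 5.24 to 6.55 in the control, and neural genes 5.8 in the KO and 5.61 in the control. Of 6 cardiomyocyte genes, 4 had a summit in the KO and 5 in the control, and Myh7 had none in either. The part of other cell types in the differences given here was not tested.

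The start sites of 3 of the genes held summits within the 300 bases from 250 before to 50 after the RefSeq start. T had 2 such summits, in KO replicate 2 of day 5 and control replicate 1 of day 3, and Eomes and Tbx6 had 1 each, in control replicates 1 and 2 of day 3. The promoter of Mesp1 is shown beside them because its nearest summit lay 73 bp after the start, past the window, and because it alone among the 6 held a T-box match. Sequences are from RefSeq (GRCm38.p6, the assembly of mm10), written 5′ to 3′ on the strand of the gene, at chr17:8434173-8434472 for T, chr9:118477939-118478238 for Eomes and chr7:126781233-126781532 for Tbx6, all on the plus strand, and at chr7:79793541-79793840 on the minus strand for Mesp1. Capitals mark every match, on either strand, to 6 motifs: the forkhead motif TAAACA, the T-box motif GGTGTGA, the Tcf/Lef motif CTTTGAT, the Smad motif CAGAC, the E-box motif CANNTG and the Gata motif AGATAA. No match overlapped another.
T: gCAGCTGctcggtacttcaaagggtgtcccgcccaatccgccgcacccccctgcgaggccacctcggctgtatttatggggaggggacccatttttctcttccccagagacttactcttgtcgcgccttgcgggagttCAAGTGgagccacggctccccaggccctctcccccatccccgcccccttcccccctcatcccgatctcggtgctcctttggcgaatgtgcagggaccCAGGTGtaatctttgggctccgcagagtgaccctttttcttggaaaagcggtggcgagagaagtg
Eomes: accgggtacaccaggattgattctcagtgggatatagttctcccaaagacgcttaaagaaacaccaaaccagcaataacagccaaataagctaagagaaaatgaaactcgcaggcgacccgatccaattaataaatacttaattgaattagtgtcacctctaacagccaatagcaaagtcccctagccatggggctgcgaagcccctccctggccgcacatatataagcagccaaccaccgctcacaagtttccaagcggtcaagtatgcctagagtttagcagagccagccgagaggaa
Tbx6: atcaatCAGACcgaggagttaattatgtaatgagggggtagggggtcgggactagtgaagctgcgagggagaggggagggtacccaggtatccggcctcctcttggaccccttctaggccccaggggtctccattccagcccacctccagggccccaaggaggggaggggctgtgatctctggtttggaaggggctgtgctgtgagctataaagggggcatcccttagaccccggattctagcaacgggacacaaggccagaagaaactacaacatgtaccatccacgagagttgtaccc
Mesp1: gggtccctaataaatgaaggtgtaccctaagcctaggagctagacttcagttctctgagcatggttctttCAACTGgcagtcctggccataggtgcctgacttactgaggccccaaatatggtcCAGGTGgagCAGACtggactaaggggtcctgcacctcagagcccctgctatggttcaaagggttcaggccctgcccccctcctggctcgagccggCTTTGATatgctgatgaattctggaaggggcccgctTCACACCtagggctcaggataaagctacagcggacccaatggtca

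In the T promoter the capitals are 3 E-boxes, and in that of Tbx6 a single CAGAC. The Eomes promoter held none of the 6 motifs. In Mesp1 they are 2 E-boxes, 1 CAGAC, 1 CTTTGAT that begins 31 bp before the start and 1 GGTGTGA on the opposite strand that begins 5 bp after it. GGTGTGA was present in 3.98% of the 32619 promoters of the table, CTTTGAT in 3.76%, TAAACA in 13.4%, AGATAA in 11.2%, CAGAC in 49.5% and CANNTG in 72.3%. Of the 6 genes, Msgn1 was the one with a TAAACA match, 237 bp before its start, and it had a CTTTGAT match as well, but no summit of any library fell in its promoter window. A match describes letters only.

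**Figure D1:**
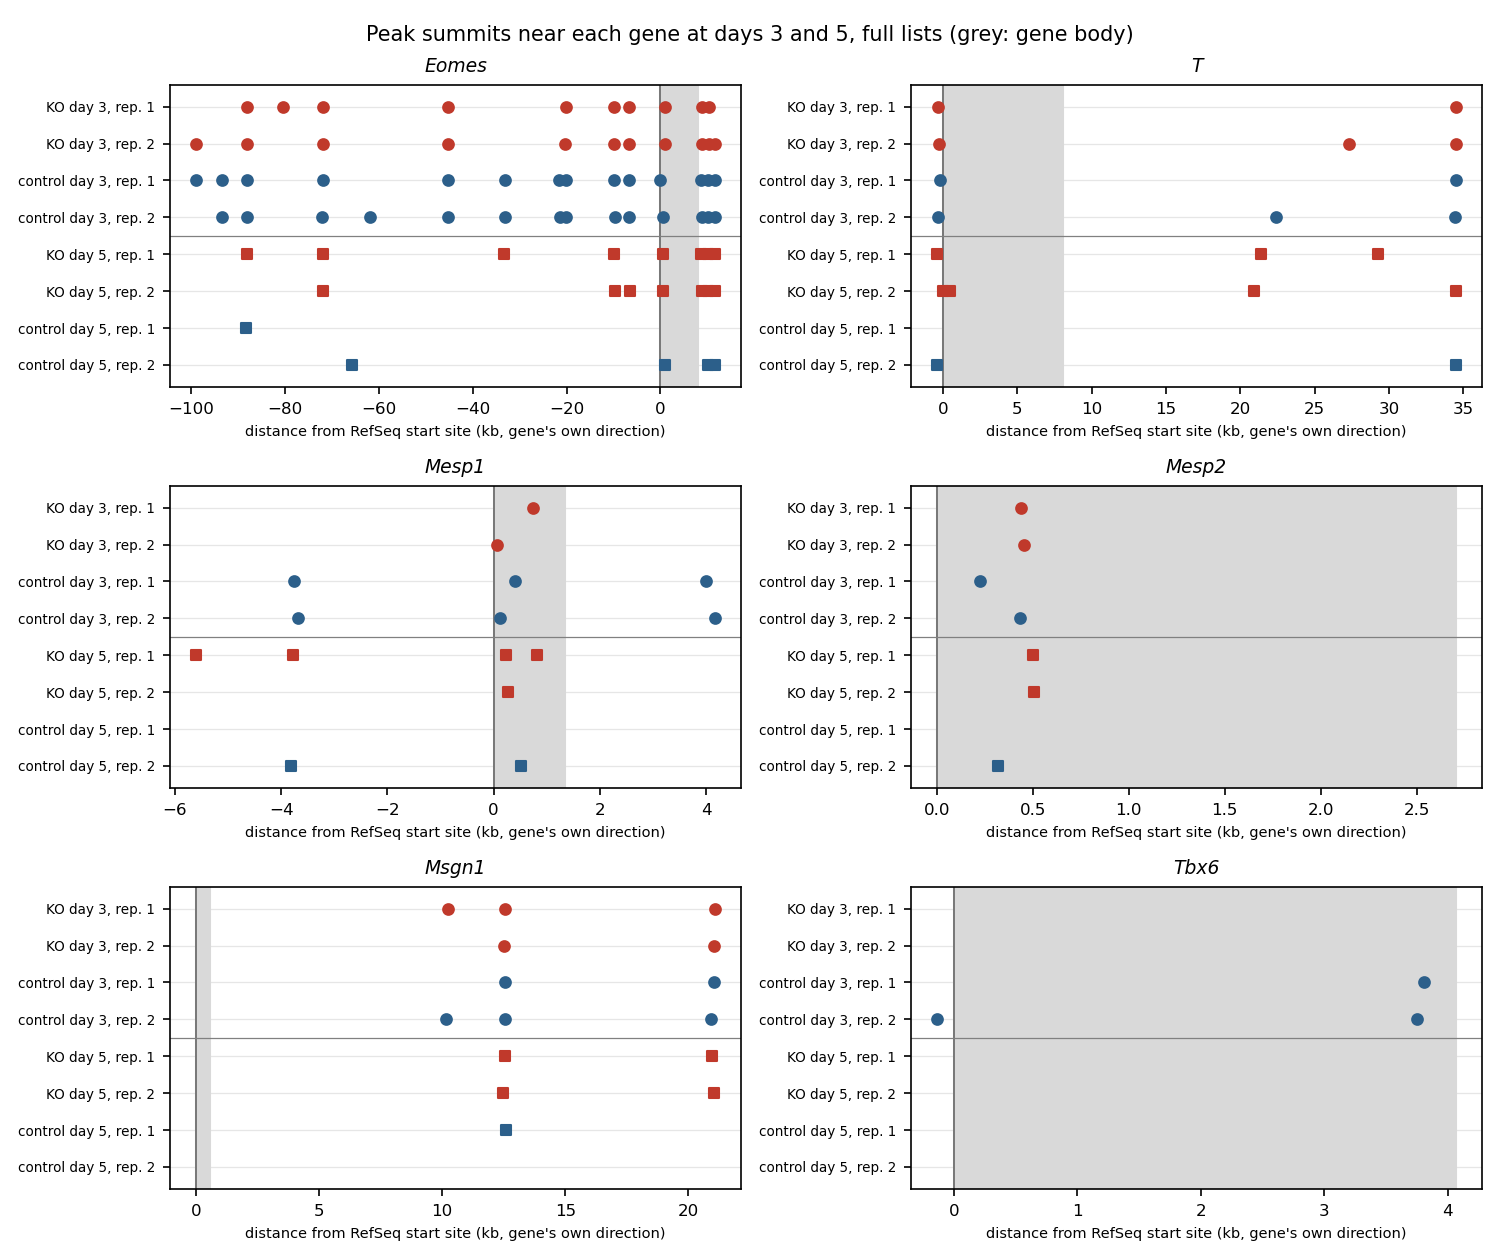
Position of every summit near the 6 genes in the 8 libraries of days 3 and 5 (full lists). The x axis is the distance from the RefSeq start site in kb along the direction of the gene, rows are libraries (KO red, control blue, circles day 3, squares day 5), and grey marks the gene body. Eomes has summits over nearly 100 kb upstream, while Mesp2 has summits at one place only.

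The 36 regions were mostly away from start sites. Only 7 had their midpoint within 1 kb of a start, 1 or 2 for each gene except Msgn1, which had none. Eomes had 14 upstream, 1 inside the gene and 3 downstream, T 6 of its 8 downstream, and Msgn1 all 3 downstream. Of the 36, 24 had a summit in at least 2 libraries and 12 in a single one, and no region had one in all 8 libraries of days 3 and 5. Neighbouring genes bear on the assignments. Tbx6 lies 318 bp from Ppp4c, T overlaps the predicted gene LOC115486424, and Mesp1 and Mesp2 are transcribed away from each other across 17136 bp, whereas Eomes lies 20064 bp from the next gene, Golga4.

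T had a summit at its start in 7 of the 8 libraries of days 3 and 5, and at a place far downstream in 6 of them. At the start (chr17:8434024-8434433, midpoint 0.195 kb upstream) the rank in the full list, counted from 1 for the highest score, was 17084 and 20101 in the KO and 17303 and 9424 in the control at day 3. The genotypes overlapped there. At day 5 it was 30417 and 40455 in the KO and 30915 in control replicate 2, with no summit in control replicate 1. Summits of this region were spread from 399 bp before to 10 bp after the start. The downstream region (chr17:8468862-8468923, 34.5 kb from the start) ranked 22232 and 18744 in the KO and 24102 and 34368 in the control at day 3. Both KO libraries had it higher in the list than both control libraries. At day 5 it was present in KO replicate 2 (24016) and control replicate 2 (21525). The other 6 regions of T were each seen in 1 library, 4 of them in the KO at day 5.

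Eomes, which is needed for definitive endoderm and for cardiac mesoderm, had the most regions of the 6 genes. In the lists cut to the same length it had 9 and 11 summits in the KO and 14 and 14 in the control at day 3. Both KO libraries were below both control libraries, as they also were for Mesp1 (1 and 1 in the KO, 3 and 3 in the control) and Tbx6 (0 and 0 in the KO, 1 and 2 in the control). Of the 18422 genes with a summit at that day, 8.66% had fewer in both KO libraries and 9.22% more, the second being so for none of the 6. Mean Eomes values were 1.87 ± 0.265 per 10000 summits in the KO and 2.62 ± 0 in the control (SD, n = 2 each). At day 5, with 14519 summits per library, no KO library had one near Eomes and both control libraries had 1. Those lay at different places, 88.1 kb upstream in replicate 1 (rank 7751) and inside the gene in replicate 2 (rank 13167). Inside the gene both KO libraries also had a summit, past the cut (ranks 18381 and 16721). Of 13668 genes, 6.69% had fewer in both KO libraries at day 5 and 5.63% more, and none of the other 5 was among them. At day 10 no library had a summit near any of the 6 (7.54% and 5.39% of 5494 genes had fewer or more). Over the 3 days the KO minus control difference was −0.479 summits per 10000 (two-sided exact permutation of genotype within days, p = 0.0556, adjusted p = 1 over 18635 genes). Without control replicate 1 of day 5 it was −0.0536 (exact permutation p = 0.833).

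In the same test, Tbx6 differed by −0.0935 (exact permutation p = 0.333) and Mesp1 by −0.125 (exact permutation p = 0.333), both with an adjusted p of 1. T, Mesp2 and Msgn1 had a difference of 0 (exact permutation p = 1). Without control replicate 1 of day 5 the difference was −0.223 for Mesp1 (exact permutation p = 0.0556) and 0.196 for Msgn1 (exact permutation p = 0.278), both larger than that of Eomes. For Msgn1 it was 0.115 without KO replicate 2 of day 5 and −0.115 without KO replicate 1 or control replicate 2 of that day (exact permutation p = 0.889 each). No gene of the 18635 passed after adjustment, and 49 had an unadjusted p under 0.05, namely 24 with fewer summits in the KO (0.129%) and 25 with more (0.134%). The smallest exact permutation p of the design is 0.00926, for genes with summits at all 3 days. With days 3 and 5 alone, as for Eomes, it is 0.0556, and with day 3 alone, as for Tbx6 and Mesp1, 0.333. The p-values of these genes could thus not have been lower. A few genes could not pass adjustment over 18635 genes at such p-values, so that none passing is no result about the genes.

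**Figure D2:**
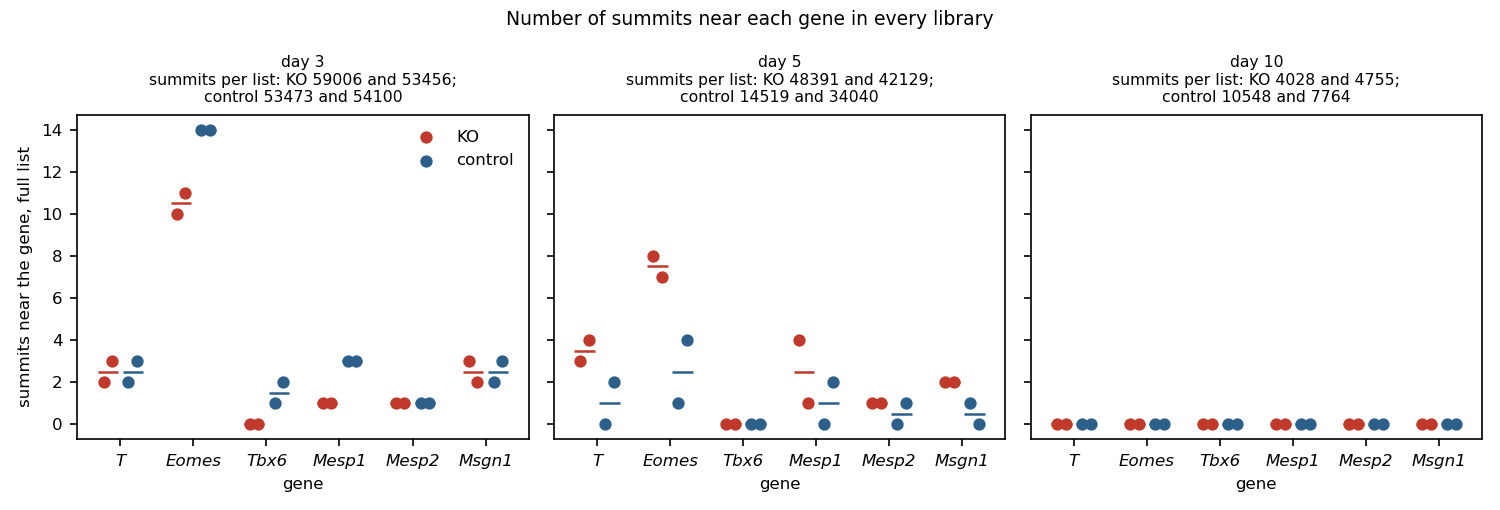
Number of summits near each gene in every library (points; full lists) with the mean of each group (short lines), at days 3, 5 and 10, KO in red and control in blue. List lengths stand above each panel. Eomes has 10 and 11 (KO) and 14 and 14 (control) at day 3, and 8 and 7 (KO) and 1 and 4 (control) at day 5.

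At day 3, some regions near the genes were found in both control libraries and in neither KO library. Each library was cut to its 53456 highest-scoring summits, and a region was called reproducible when both libraries of at least 1 genotype had a summit in it. Of 21 reproducible regions near the 6 genes, 1 (4.76%) was KO-only and 6 (28.6%) were control-only, while 9.77% and 9.57% of all 52273 reproducible regions were KO-only and control-only. The control-only regions lay near Eomes (3), Mesp1 (2) and Tbx6 (1), and 13 of the 21 were in all 4 libraries, against 62.0% of all. With 2 libraries against 2 no exact permutation p under 0.333 is possible, so these are presence calls without a test. At each of the 6 at least 1 control library had its summit below rank 26728, and with lists cut to that number 1 region was KO-only (9.1% of all regions) and none control-only (9.13%). Without control replicate 1, 10 of 27 reproducible regions were control-only, against 19.2% of all regions, since a single control library then sufficed for the call.

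Mesp1 had 2 of the 6. One lay past the end of the gene (chr7:79789419-79789582, 4.09 kb from the start) and ranked 17483 and 29441 in the control at day 3. No KO library of any day, and no control library of day 5 or 10, had a summit there. The nearest KO summits of day 3 were 3267 and 3000 bp away. Another lay between Mesp1 and Mesp2 (chr7:79797281-79797407, 3.75 kb upstream of Mesp1), with ranks of 26347 and 44016 in the control at day 3. There the KO had no summit at day 3, while at day 5 KO replicate 1 (rank 47908) and control replicate 2 (20074) had one. At the start of Mesp1 itself all 4 libraries of day 3 had a summit inside the gene, 741 and 73 bp from the start in the KO and 397 and 118 bp in the control. These were too far apart to be merged into 1 region at day 3. Start-site ranks read 33637 and 31464 for KO libraries and 45815 and 41188 for control libraries, higher up the list in both KO libraries. As the summits were not 1 region, these ranks do not compare a single site. Of all regions shared by the 4 libraries of day 3, 27.6% had both KO summits ranked above both control summits. A last region, 5.61 kb upstream, was in KO replicate 1 of day 5 alone (40289). At Mesp1 the start was thus listed in both genotypes at day 3, and the regions on either side in the control alone.

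Mesp2, a regulator of somite segmentation, had a single region, 0.365 kb inside the gene (chr7:79810953-79811231). It ranked 21218 and 32810 in the KO and 25074 and 27973 in the control at day 3, and 19743 and 30193 in the KO and 28309 in control replicate 2 at day 5. The genotypes overlapped at day 3. In 7 of the 8 libraries of days 3 and 5 it held a summit, the exception being control replicate 1 of day 5.

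Tbx6, which directs cells to paraxial mesoderm, had no summit in any KO library. Both of its regions were in the control at day 3: 1 inside the gene near its end (chr7:126785230-126785293, ranks 24768 and 40320) and 1 at the promoter shown above, in replicate 2 alone, 137 bp before the start (rank 49154). The first was control-only. Its midpoint is 287 bp from the end of Tbx6 and 605 bp from that of Ppp4c, so that which of them it belongs to cannot be told apart. The nearest KO summits were 5106 and 4662 bp away.

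Msgn1, which drives maturation of presomitic cells, had the highest-ranked region of all. That region (chr12:11187864-11188044, 21.0 kb downstream of the start) ranked 6699 and 2412 in the KO and 3815 and 6645 in the control at day 3. Genotypes overlapped, and every other summit near the 6 genes at day 3 ranked lower in its library except 1 in control replicate 2, 9.73 kb upstream of Eomes. At day 5 it ranked 13189 and 16101 in the KO and had no summit in either control library. Another region, 12.5 kb downstream (chr12:11196369-11196458), was in all 4 libraries at day 3, with ranks of 24607 and 32248 in the KO and 18151 and 27141 in the control, and in 3 of 4 at day 5. The last, 10.2 kb downstream, was in KO replicate 1 (33154) and control replicate 2 (49295) of day 3.

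Around Eomes, 3 upstream regions were control-only at day 3. They lay 93.4 kb (chr9:118384775-118384792, ranks 37398 and 26215), 33.2 kb (chr9:118444945-118445060, ranks 50809 and 49356) and 21.5 kb (chr9:118456612-118456699, ranks 31871 and 40857) before the start. The nearest KO summits of day 3 were 5305 and 5325 bp from the first, 12006 and 12051 bp from the second, and 1352 and 1267 bp from the one 21.5 kb upstream. The region 33.2 kb upstream had a KO summit at day 5, in replicate 1 (rank 32513). The region 21.5 kb upstream neighbours one 20.2 kb upstream that all 4 libraries had, with ranks of 30287 and 30189 in the KO and 32701 and 22795 in the control. The KO-only region lay inside Eomes (chr9:118479072-118479192 at day 3, ranks 13335 and 15124), 883 and 1003 bp from the start. Control libraries also had a summit near the start, 58 bp before it in replicate 1 (rank 21954) and 442 bp after it in replicate 2 (rank 21443), so that both genotypes had summits near the start, at different places. With no summit allowed within 1 kb this region was no longer called.

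**Figure D3:**
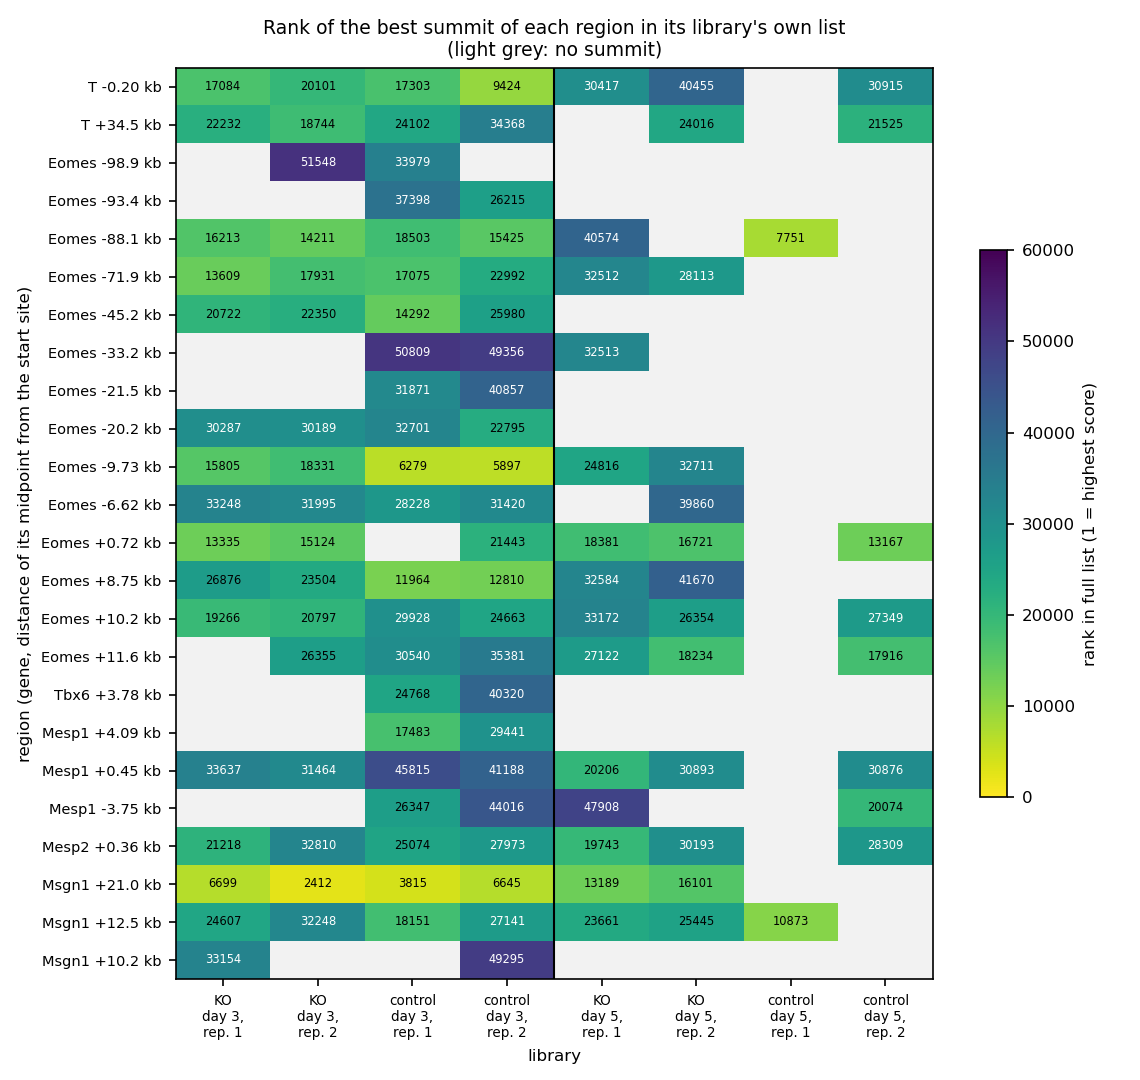
Rank of the best summit of each of the 24 regions with a summit in at least 2 libraries, by library, at days 3 and 5. Rows give the gene and the distance of the region's midpoint from the start site, colour and printed number give the rank in the full list (1 is the highest score), and light grey means no summit. The region 21.0 kb downstream of Msgn1 has the highest rank, and the column of control replicate 1 at day 5 is nearly empty.

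Regions shared by all 4 libraries of day 3 were compared by rank, a comparison chosen after the values were seen. In 3 of the 13, all near Eomes, both KO summits ranked below both control summits, and in 2, 1 near Eomes and 1 near T, both ranked above. Among all 32431 shared regions 22.9% and 27.6% did so. The region 9.73 kb upstream of Eomes (chr9:118468312-118468601) ranked 15805 and 18331 in the KO and 6279 and 5897 in the control, a log2 rank ratio (KO over control, positive where the KO stood lower in the list) of 1.48, and 2.19% of all shared regions had a larger one. The region 8.75 kb from the start, just past the end of the gene (chr9:118486887-118486992), ranked 26876 and 23504 in the KO and 11964 and 12810 in the control, a ratio of 1.02 with 5.23% of regions above it. At both, the KO summits stood further down the list than the control summits. The remaining one, 6.62 kb upstream, differed little: 33248 and 31995 in the KO and 28228 and 31420 in the control (log2 ratio 0.13). Next to these, the region 10.2 kb from the start ranked higher in the KO (19266 and 20797) than in the control (29928 and 24663), so that the regions of Eomes did not all differ in one direction. The median log2 ratio was 0.13 over the 13 regions and −0.04 over all shared regions. With 1 library left out, 4 to 6 of 13 or 14 regions had the KO below, and 34.7% to 35.3% of all shared regions did, as fewer libraries then had to be in order.

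Other regions of Eomes overlapped between genotypes at day 3. That at 88.1 kb upstream ranked 16213 and 14211 in the KO and 18503 and 15425 in the control, and that at 71.9 kb, 13609 and 17931 in the KO and 17075 and 22992 in the control. At 45.2 kb they stood at 20722 and 22350 in the KO and 14292 and 25980 in the control. A region 11.6 kb from the start was in KO replicate 2 (26355) and in both control libraries (30540 and 35381). The farthest region, 98.9 kb upstream, was in KO replicate 2 (51548) and control replicate 1 (33979), and those 80.3 kb and 62.0 kb upstream were in KO replicate 1 (58465) and control replicate 2 (46062) alone.

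**Figure D4:**
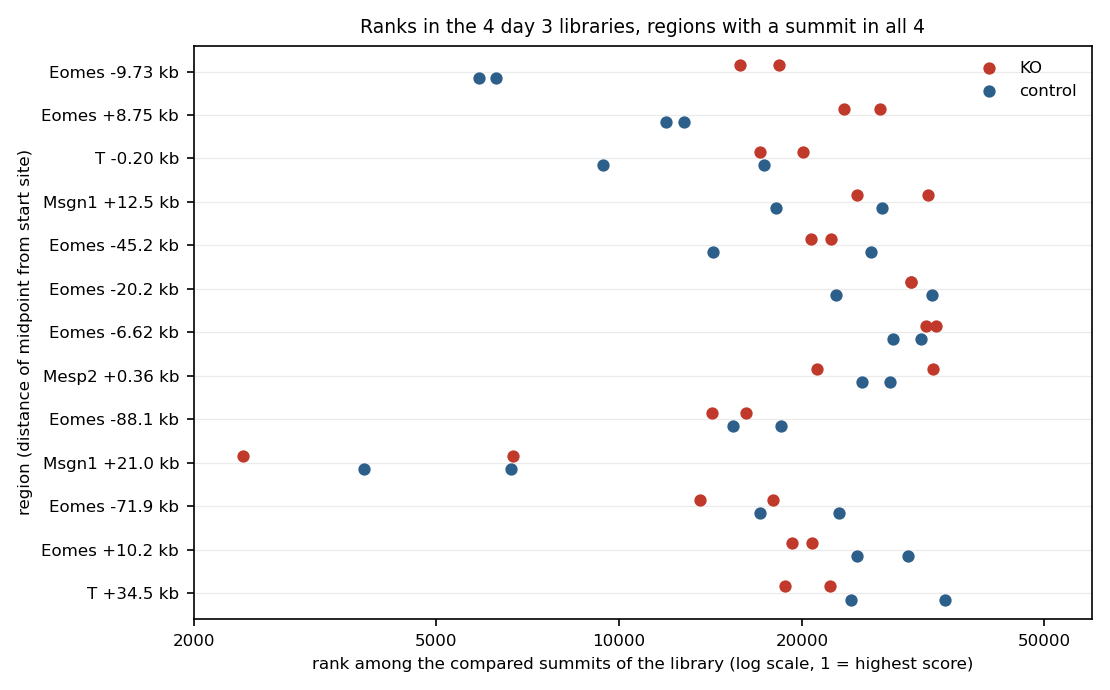
Ranks in the 4 libraries of day 3 for the 13 regions with a summit in all 4, on a log axis (1 is the highest score), KO in red and control in blue, ordered from the largest to the smallest log2 rank ratio. The region 9.73 kb upstream of Eomes separates the genotypes most, with KO ranks of 15805 and 18331 and control ranks of 6279 and 5897.

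At day 5 the comparison is limited by the 14519 summits of control replicate 1. Cut to that number, the libraries had 4 regions near the 6 genes, each in a single library, and none was reproducible, so that 0 were KO-only (12.1% of all 14273 reproducible regions), 0 control-only (7.97%) and 0 in all 4 libraries (57.6%). Without that library, 34040 summits could be compared in the other 3. Of 14 regions then reproducible, 5 were KO-only and 3 control-only, against 19.9% and 27.6% of all regions. The KO-only ones lay 71.9 kb and 9.73 kb upstream of Eomes, inside Eomes, and 21.0 kb and 12.5 kb downstream of Msgn1. The last had a summit in the omitted control library (rank 10873). The control-only ones lay 3.75 kb upstream of Mesp1, 65.6 kb upstream of Eomes and inside Eomes, there at another position than the KO summits. The starts of Mesp1 and Mesp2 and the regions 10.2 kb and 11.6 kb from the start of Eomes were in all 3 libraries.

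Between days, most regions of day 3 were still listed in the KO libraries labelled day 5, though a smaller share than of all regions. Those libraries name their peaks with a tag for day 7, so that the interval is uncertain in the KO. Of 14 regions with a summit in all 4 day 3 libraries (full lists of all 12 libraries merged), 10 and 11 had one in the KO libraries of day 5, against 85.4% and 82.6% of all such regions, and 2 and 5 in the control libraries, against 32.8% and 57.5%. Both KO libraries had 9 of the 14 (78.2% of all such regions) and both control libraries 0 (32.2%). The 45.2 kb and 20.2 kb upstream regions of Eomes were listed in no library of day 5. Lists of day 5 were shorter in the control, so the genotypes cannot be compared by these numbers. With 14519 summits per library, no region near the genes was day 5-only in the KO (9.63% of all regions), none day 3-only (10.1%) and none in all 4 libraries (62.3%). The 1 reproducible region, 21.0 kb downstream of Msgn1, was in both libraries of day 3 and in replicate 1 of day 5. In the control none was day 5-only (13.4%) or in all 4 libraries (44.6%), and 3 of 3 reproducible regions were day 3-only (22.5% of all). These were 9.73 kb upstream and 8.75 kb downstream of the Eomes start and 21.0 kb downstream of that of Msgn1. Without control replicate 1 of day 5 there were 3 day 5-only (31.1%) and 10 day 3-only regions (24.5%). The KO and control comparisons of days use the same libraries as those between genotypes.

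At day 10 none of the 36 regions held a summit in any of the 4 libraries, KO or control, so that 0 were KO-only (9.88% of all 3634 reproducible regions), 0 control-only (11.8%) and 0 in all 4 libraries (47.6%). Of all regions found in the 4 libraries of day 3, 74.6% likewise had none at day 10, and of all genes with a summit in those 4 libraries, 47.8% had none. The short lists of day 10 cannot show whether weaker regions were still open.

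Related genes were counted in the same way at day 3. Of 59 reproducible regions near 14 other T-box genes, 10 (16.9%) were KO-only, near Tbr1, Tbx1, Tbx15, Tbx19, Tbx20, Tbx3, Tbx4 and Tbx5, and 5 (8.47%) control-only, near Tbx1, Tbx15, Tbx18, Tbx2 and Tbx22. Of 97 regions near 24 genes of the surrounding network, 11 (11.3%) were KO-only and 14 (14.4%) control-only, and the genes with control-only ones included the ligands Wnt3, Nodal and Fgf8, the Notch ligand Dll1, the repressor Snai1, and Foxc1, Lef1, Ripply1, Ripply2 and Rspo3. Dll1, Fgf8, Lef1, Nodal, Ripply1 and Snai1 also had KO-only regions, as did Foxc2 and Sp5. Of 23 regions near the streak homeobox genes Gsc, Mixl1, Lhx1 and Evx1, 3 (13%) were KO-only and 11 (47.8%) control-only. No difference between these lists and the 6 genes was tested.

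The genes whose values most resembled those of a member over the 8 libraries of days 3 and 5 were found from log10(14519 / rank of the best summit), set to 0 where a library had none. For Eomes they were Serpina5 and Car10 and for Msgn1 Acsl5 and Gm10037, each with Pearson's r = 0.99 among 12067 genes compared. The 8 points share the compared list length and the order of days. T had such a summit in 1 library and Tbx6, Mesp1 and Mesp2 in none, so that no like gene was sought for them.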

How the data were processed

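ATAC-seq summit lists of 12 mouse libraries were used. The submitters' processing notes name Bowtie2 2.2.4, the mm10 build and MACS2, without a version, and each library has its own deposited list. The authors' score beside a summit is on the −log10 scale of a p-value or q-value, which of them the sources do not say. It served only to rank summits within a list. Up to 2032 summits of a list shared a score with a summit near the 6 genes, and ties were ordered by chromosome and position. Summits on chromosomes 1 to 19 and X were kept (21 to 246 per list left out), cut to the shortest list compared and merged by single linkage at 250 bp. Genes, start sites and promoters came from RefSeq GRCm38.p6, and all 6 symbols matched. Groups came from the titles, KO and control at each day.

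All 6 genes, each of their reproducible regions and those with a summit in 2 or more libraries are named, and of other genes those of the lists with a called region (except an item not reported here) and the 2 most like a member with a summit in 3 or more libraries. Numbers of summits per gene were tested for every gene by two-sided exact permutation of genotype within days (216 arrangements), with Benjamini-Hochberg adjustment. Libraries of a group shared 0.771% to 4.13% of summit positions, so none was a copy. The procedures were tested on simulated data (Python 3.11.15, numpy 2.4.6, pandas 2.3.3). Alternatives were list length, merging, absence, gene distance, score, ties, days, left-out libraries and a replicate block. The 6 genes, the lists and the tests were chosen with earlier results of these data known. Distal sequences were not analysed here.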

Additional observations from a re-analysis of the deposited data

Results flagged for a closer look

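In the full lists, the difference between genotypes near Eomes had opposite signs at days 3 and 5 in every library. Eomes had 10 and 11 summits in KO libraries and 14 and 14 in the control at day 3 (KO minus control −3.5), and 8 and 7 in the KO and 1 and 4 in the control at day 5 (KO minus control 5), so that the difference changed by 8.5 summits from day 3 to day 5. In lists cut to the shortest of each day the sign did not turn. Eomes had 9 and 11 summits in KO libraries and 14 and 14 in control libraries at day 3. At day 5 it had 0 and 0 in KO libraries and 1 and 1 in control libraries. The 1 and 1 lay at different places, and both KO libraries had a summit inside the gene past the cut (ranks 18381 and 16721). Control replicate 1 set the cut of day 5. Without it, 34040 summits per list were compared. Control replicate 2 then had summits 65.6 kb upstream of Eomes, inside it, and 10.2 kb and 11.6 kb from its start. Both KO libraries had summits inside it, 71.9 kb and 9.73 kb upstream, and 10.2 kb and 11.6 kb from its start, so that the sign turned. At day 5, with 14519 summits per library, the 11 nascent mesoderm genes together had 1.38 to 2.07 summits per 10000 in the KO. The control had 3.44 to 4.82. Only 3 of the 11 had a summit in the KO and 5 in the control. Fibroblast (feeder) genes had 0.689 to 1.38 in the KO and 4.13 to 5.51 in the control. Neural genes went the other way, with 2.07 to 3.44 in the KO and 1.38 in the control. Per 10000 summits of the full lists, the Eomes difference was −0.73 at day 3 and 0.72 at day 5, a change of 1.45. Summed over the 6 genes, the KO had 17 and 18 summits and the control 23 and 26 at day 3, and the KO had 18 and 15 and the control 2 and 9 at day 5, a change of 18.0 summits, or of 3.06 per 10000. These differences between days were not tested. The lists of day 5 held 48391 and 42129 summits in the KO and 14519 and 34040 in the control, and the KO peaks are named with a tag for day 7. The part of list length and day in this pattern was not tested.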

How the results depend on the processing

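Counts near the 6 genes rest on few regions. The 6 control-only regions of day 3 numbered 4 to 6 under the other settings, except 0 with the compared list length N divided by 2 and 6 to 10 without 1 library (10 of 27 without control replicate 1, 19.2% of all regions). The KO-only region of day 3 was lost (0) with merging at 100 bp, merging at 500 bp and absence within 1 kb, and without 1 library 1 to 2 were called (2 of 24 without KO replicate 1 and 2 of 23 without KO replicate 2, 18.6% and 18.0% of all regions). At day 5 all summits gave 5 KO-only regions of 10 (36.9% of all regions), in lists that were longer in the KO. Without 1 library of day 5 there were 0 to 5 KO-only and 0 to 3 control-only regions, the highest numbers without control replicate 1 (5 and 3 of 14, against 19.9% and 27.6%). In the KO, day 3-only regions numbered 2 of 16 with all summits (17.2% of all regions), 1 of 1 with N divided by 2 (14.8%), 1 of 1 with a score of at least 5 (13.3%), and 0 to 2 without 1 library (2 of 3 without day 3 replicate 2, 15.1%). In the control, day 3-only regions numbered 12 of 20 with all summits (48.0% of all regions) and 3 to 10 without 1 library, and day 5-only regions 0 to 3, both highest without day 5 replicate 1 (10 and 3 of 19, against 24.5% and 31.1%). Equal scores ordered the other way, a choice made after the data were seen, changed no such count. In these 22 cases the cause was not tested, and in 128 others the count stayed within 1.5 times. Most of the 128 compared 0 with 0, among them all counts of day 10, where no list held a summit near the genes. The counts of genes passing after adjustment were also among them. Genes with an unadjusted p under 0.05 numbered 49. Numbers were 1180 with all summits, 12 with N divided by 2 and 12 with N of the shortest of all lists. A score of at least 5 gave 24. Without day 5 or day 10 there were 0, as the smallest exact permutation p is then 0.0556 and no gene could pass. After adjustment 0 passed under every setting run, but the smallest p of the design left this count little room to change. The Eomes difference ran from −0.541 to −0.0536 without 1 library, and was −0.000419 with all summits (exact permutation p = 1), where that of T was 0.159 (exact permutation p = 0.333). With N divided by 2 it was −0.0624 for Eomes and −0.125 for Mesp1 (exact permutation p = 1 each).

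Replicate numbers did not pair libraries: deviations of same-numbered libraries correlated at −0.015, −0.01 and −0.022 at days 3, 5 and 10 (across genes). With the replicate block 0 genes passed after adjustment, 5 had an unadjusted p under 0.05, and the Eomes difference of −0.479 had an exact permutation p of 0.125. Depth is unknown, so that a missing summit does not show closed chromatin.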

Other observations

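At day 5, where none of the 6 genes had a reproducible region among 14519 summits per library, related genes had a few. Of 11 reproducible regions near the 14 other T-box genes, 3 were KO-only (near Mga, Tbr1 and Tbx18) and 2 control-only (near Mga and Tbx18), and of 9 near the network genes none was KO-only and 3 were control-only, near Wnt3, a ligand needed for the primitive streak, and Cdx2, a regulator of posterior identity. Of all regions 12.1% were KO-only and 7.97% control-only at that day.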
